A study of Mus musculus and Homo sapiens with 9 samples.

Results

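The surface antigens CD2, CD5, CD6, CD7, CD27, CD28, CD34, CD38, CD44 and CD69 are the proteins by which T cells and their leukemias are recognised and staged. These 10 genes were taken by symbol from 56105 annotated genes counted in J.gamma1 cells and, under their mouse symbols, from 42462 annotated genes counted in mouse T cells. J.gamma1 is a human T cell acute lymphoblastic leukemia (T-ALL) line, a single clone of Jurkat origin that lacks the phospholipase PLCG1. It carried either a control short hairpin RNA (sh-NC, n = 2) or one against the transcriptional cofactor IRF2BP2 (sh-IRF2BP2, n = 2). The mouse libraries were CD3+ T cells isolated from the spleen, 2 of them with the conditional Irf2bp2 allele deleted (Irf2bp2 fl/fl, Vav-iCre+/-, termed knockout) and 3 termed control. The controls are labelled wild type, while the study describes them as floxed animals without Cre. Vav-iCre is active throughout the blood system, so the deletion was not limited to T cells. The labels give neither the age of the mice nor whether a library came from 1 animal, and nothing states that the J.gamma1 replicates were separate cultures. P-values therefore measure only the spread between these libraries.

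CD2, CD5, CD6 and CD7 are carried by T cells from the thymus onwards. CD2 is an adhesion receptor, CD5 and CD6 are related scavenger-type receptors that dampen receptor signals, and CD7 is an early T lineage antigen. CD27 and CD28 are costimulatory receptors of the TNF receptor and immunoglobulin families. CD34 marks stem and progenitor cells, CD38 is an ectoenzyme that uses NAD and is abundant on thymocytes and many leukemic blasts, CD44 is the hyaluronan receptor, and CD69 is an early activation antigen that retains cells in tissue.

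The sequences upstream of CD28 and CD38, which passed the test in J.gamma1 cells in opposite directions, are shown so that they can be compared. Each run holds the 250 bases before the start of the MANE Select transcript (GENCODE annotation), 5′ to 3′ on the strand of the gene, from hg38. They lie at chr2:203706389-203706638 for CD28 and chr4:15778078-15778327 for CD38, both on the plus strand. Capitals mark the letters of a RUNX core site, TGTGGT or its reverse complement ACCACA.
CD28: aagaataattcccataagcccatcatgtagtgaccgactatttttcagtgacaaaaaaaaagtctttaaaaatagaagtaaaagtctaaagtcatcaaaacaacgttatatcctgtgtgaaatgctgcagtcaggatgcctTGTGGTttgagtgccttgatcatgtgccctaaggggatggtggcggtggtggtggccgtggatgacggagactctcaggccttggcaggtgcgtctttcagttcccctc
CD38: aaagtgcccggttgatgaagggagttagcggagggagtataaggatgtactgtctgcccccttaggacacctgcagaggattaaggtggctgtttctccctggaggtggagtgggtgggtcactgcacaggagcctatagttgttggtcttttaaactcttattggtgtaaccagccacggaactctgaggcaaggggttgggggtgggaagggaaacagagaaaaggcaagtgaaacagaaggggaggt

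RUNX core letters were found in the promoters (250 bases before to 50 after the start, both strands) of 3 of the 10 human antigen genes. CD28 was among them, with the first base of its match 109 bases before the start, and CD38 was not. The same letters occurred in 10.6% of 19061 human promoters. ETS core letters (CCGGAA) were in 0 of the 10, against 22.8% of all promoters. The E-box CAGCTG was in 2 (17.6% of all) and the Sp/KLF letters GGGGCGGG in 3 (34.6% of all). None of these matches overlapped another. For the mouse, 5 of the 10 promoters were in the RefSeq table (GRCm38.p6), those of Cd5, Cd27, Cd34, Cd38 and Cd44, and 0 of these 5 held any of the 4 motifs. Of all 27025 mouse promoters, 16.9% held the RUNX, 15.2% the ETS, 16.1% the E-box and 16.7% the Sp/KLF letters. A match is a description of the letters and not a measured binding site.

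Total counts per library were 26648204 to 31120236 for J.gamma1 and 16668577 to 37177523 for the mouse, where control replicate 3 was the shallowest. IRF2BP2 counts fell from 5294 and 6166 with sh-NC to 2299 and 2766 with sh-IRF2BP2. Irf2bp2 counts were 4145, 4594 and 1915 in control and 0 in both knockout libraries, so the targeted gene followed the labels. Levels below are in CPM, a gene's counts relative to the size of its library, with library sizes scaled by the trimmed mean of M values (TMM). A gene was called changed where edgeR's quasi-likelihood test gave a Benjamini-Hochberg adjusted p under 0.05 over all genes tested and the log2 change was 0.5 or more either way. A count of 3, used as the floor, equals at most 0.116 CPM in J.gamma1 and 0.188 CPM in the mouse, and covers counting error only.

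In J.gamma1 cells CD6 and CD28 rose and CD38 fell when IRF2BP2 was knocked down. Of the 9 antigen genes with enough counts to be tested, 2 were called higher, against 5.46% of all 15819 genes tested, and 1 was called lower, against 5.01% of all genes. The 2 groups of libraries did not overlap for 8 of the 9, with 5 higher and 3 lower after knockdown. Non-overlap in these directions was seen for 29.6% and 28.7% of all genes. The median log2 fold change of the 9 was 0.31, against 0.0067 over all genes. CD44 was not tested.

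Human positions are given in hg38. CD6 (ENSG00000013725, chr11:60971680-61020377) was at 43.8 and 48.2 CPM with sh-NC and at 73.3 and 75.2 CPM in the sh-IRF2BP2 libraries. Both knockdown libraries lay above both controls. The log2 fold change was 0.69 (SE 0.119, edgeR adjusted p = 0.012). CD5 (ENSG00000110448, chr11:61102489-61127852), a nearby gene of the same family 82.1 kb downstream, was at 36.3 and 45.1 CPM with sh-NC and at 46.4 and 56.2 CPM with sh-IRF2BP2. The higher control and the lower knockdown library were nearly level, and the log2 fold change of 0.33 (SE 0.157) did not pass the test (edgeR adjusted p = 0.22).

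CD28 (ENSG00000178562, chr2:203706475-203738912), the costimulatory receptor for CD80 and CD86, was at 26.1 and 25.5 CPM with sh-NC and at 42.1 and 48.5 CPM with sh-IRF2BP2. The control libraries were close together and both knockdown libraries were well above them. The log2 fold change was 0.81 (SE 0.135, edgeR adjusted p = 0.01). With 1 library left out it ran from 0.71 (without sh-IRF2BP2 replicate 2) to 0.89 (without sh-IRF2BP2 replicate 1). With all libraries kept, the adjusted p ran from 0.00013 with DESeq2 to 0.039 with edgeR on all genes with 1 count or more. The other costimulatory receptor, CD27 (ENSG00000139193, chr12:6444955-6451718), was barely expressed, at 0.772 and 0.902 CPM with sh-NC and at 0.55 and 1.53 CPM with sh-IRF2BP2. The knockdown libraries lay on both sides of the controls. CD27 also overlaps the genes TAPBPL and CD27-AS1, and whether counting used the strand is not given in the sources used here, so its value is uncertain.

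CD38 (ENSG00000004468, chr4:15778275-15853232) moved the other way. It was at 48.2 and 47.3 CPM with sh-NC and at 23 and 29.6 CPM with sh-IRF2BP2, with both knockdown libraries below both controls. The log2 fold change was -0.86 (SE 0.154, edgeR adjusted p = 0.013). Without sh-IRF2BP2 replicate 1, CD38 and CD6 kept their direction but missed the threshold, with edgeR adjusted p = 0.06 for CD38 (9.3e-05 to 0.06 over all alternatives) and 0.056 for CD6 (0.0003 to 0.056).

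CD2 (ENSG00000116824, chr1:116754430-116769229), the receptor of CD58, was low in J.gamma1 cells, at 3.71 and 5.8 CPM with sh-NC and at 1.44 and 2.27 CPM with sh-IRF2BP2. All knockdown values were below the controls, but the control libraries were themselves far apart. The log2 fold change was -1.36 (SE 0.368), with an edgeR adjusted p of 0.054 that did not pass the threshold. CD2 was called with DESeq2 (adjusted p = 0.026), and its adjusted p ranged from 0.0062 to 0.19 over the alternatives.

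CD69 (ENSG00000110848, chr12:9752486-9760901) was at 8.61 and 11.3 CPM with sh-NC and at 12.7 and 22.9 CPM with sh-IRF2BP2. Replicate 2 of the knockdown stood apart from the other libraries. The log2 fold change was 0.84 (SE 0.292, edgeR adjusted p = 0.11), with 0.036 under DESeq2 and 0.011 to 0.57 over all alternatives. Without that replicate the log2 fold change was 0.35. CD7 (ENSG00000173762, chr17:82314868-82317608) was at 50.9 and 56.9 CPM with sh-NC and at 66 and 65.5 CPM with sh-IRF2BP2 (log2 fold change 0.29, SE 0.12, edgeR adjusted p = 0.17). Its groups did not overlap, yet the difference did not pass the test.

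The stem cell antigen CD34 (ENSG00000174059, chr1:207880972-207911402) was near the floor of detection, with 30 and 25 counts in the sh-NC libraries and 13 and 6 counts in the sh-IRF2BP2 libraries. The level was lower in both knockdown libraries, and the log2 fold change of -1.58 (SE 0.595) did not pass the test (edgeR adjusted p = 0.13). CD44 (ENSG00000026508, chr11:35138882-35232402) had 2 and 2 counts with sh-NC and 0 and 2 counts with sh-IRF2BP2. J.gamma1 cells thus gave CD44 counts at or under the floor in all 4 libraries, and no fold change is given; the 0 allows up to 0.103 CPM in that library.

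**Figure D1:**
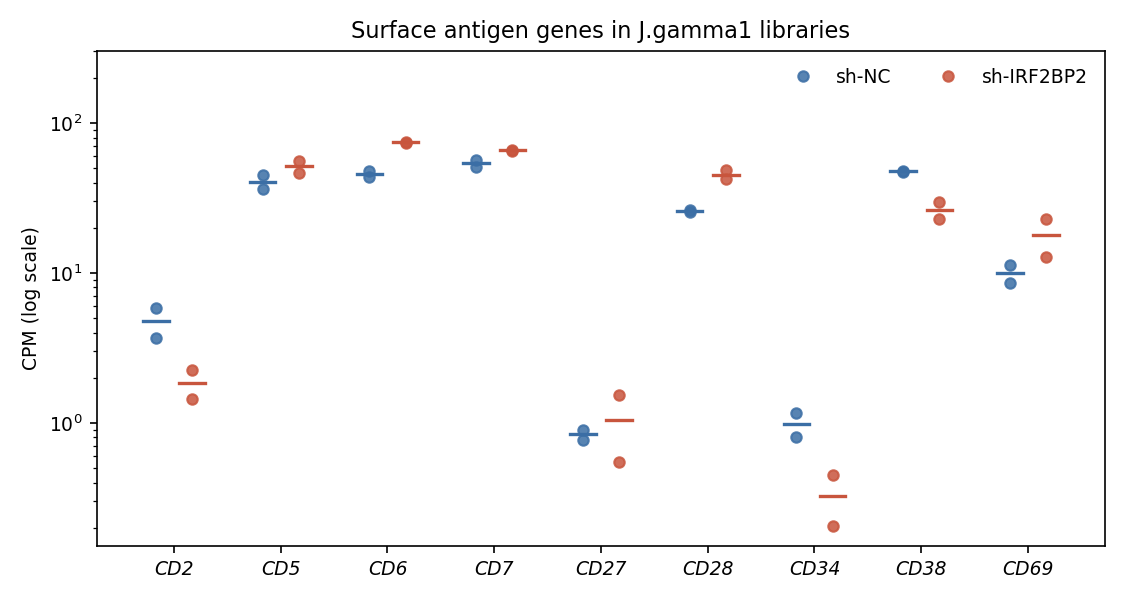
CPM on a log axis of 9 antigen genes in each J.gamma1 library, with sh-NC in blue, sh-IRF2BP2 in red and the group mean as a bar; CD44, with 0 to 2 counts, is left out. The 2 knockdown points of CD6 and CD28 sit above both control points, those of CD38 sit below, and CD27 overlaps.

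Per kilobase of exon, the antigen levels in sh-NC libraries ran from CD7 (19.7 ± 1.54 CPM per kb, SD, n = 2) over CD5 (13 ± 1.97), CD6 (7.71 ± 0.522), CD38 (6.96 ± 0.0838) and CD28 (5.27 ± 0.0878) to CD69 (3.52 ± 0.674) and CD2 (2.91 ± 0.906). CD27, CD34 and CD44 followed in that order below 1 CPM per kb. Only CD69 and CD2 overlapped as neighbours in that order. After knockdown CD7, CD5 and CD6 kept ranks 1 to 3, while CD38 moved from rank 4 to rank 6, at 3.84 ± 0.677 CPM per kb, below CD28 (9.28 ± 0.922) and CD69 (6.3 ± 2.54).

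Partners of these antigens in the same cell, all intracellular but for the surface receptor S1PR1, were called in both directions in J.gamma1 cells. Of 27 tested, 6 were called higher and 2 lower, against 5.46% and 5.01% of all genes tested. Their median log2 fold change was -0.014. S1PR1, the egress receptor that CD69 binds, was at 14.8 and 15.2 CPM with sh-NC and at 40.2 and 40.3 CPM with sh-IRF2BP2 (log2 fold change 1.42, edgeR adjusted p = 0.0016). The other higher genes included RDX, a cytoskeletal linker of CD44 (0.83), and the CD28 partners GRAP2, an adaptor (0.73), and PIK3R1, the regulatory subunit of PI3 kinase (0.71). SIVA1, which binds the CD27 tail, fell by 0.90 and TRAF3, an adaptor of the TNF receptor family, fell by 0.81 on the log2 scale. LCK, the kinase that CD2, CD5 and CD28 engage, was at 574 and 652 CPM with sh-NC and at 530 and 560 CPM with sh-IRF2BP2, a difference that did not pass the test (edgeR adjusted p = 0.45).

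Among the ligand genes, LGALS1, the galectin that binds CD7, rose from 1.58 and 2.45 CPM to 5.29 and 9.57 CPM (log2 fold change 1.87, edgeR adjusted p = 0.02). The CD2 ligands CD58 and CD48 did not pass the test, with log2 fold changes of 0.14 and 0.85.

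Among 17 other T lineage surface genes, 3 were called higher and 6 lower, with a median log2 fold change of -0.41. The share of all genes tested in J.gamma1 cells was 5.46% higher and 5.01% lower, for this and the next lists. PTPRC, which encodes CD45, rose by 1.11, THY1 by 0.89 and CD96 by 0.57 on the log2 scale, while the lipid-presenting thymocyte antigens CD1A (-2.72), CD1C (-1.60) and CD1E (-1.13) and the cytokine receptor gene IL7R (-1.06) fell. Of 11 genes of the T cell receptor and its coreceptors, LAT (0.79) and TRAT1 (0.66) were called higher and CD3D (-0.79) lower. PTCRA, the pre-T receptor chain, was also lower (-2.51) at under 5 CPM and is named after its values were seen. Activation genes gave 2 higher of 8, CD40LG (1.58) and IL2RA, which was near 0 with sh-NC and reached 1.96 and 3.19 CPM after knockdown and is likewise named after its values were seen. Early progenitor genes gave 0 called of 6 with edgeR and with DESeq2, and 2 had an unadjusted p under 0.05.

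Of the markers of other blood cells, the 8 myeloid markers were lowest in J.gamma1 cells and summed to 0.309 to 1.8 CPM, with 4 to 7 of the 8 at 0 in each library, and the 14 erythroid markers to 25.9 to 33.2 CPM. The 8 B cell markers summed to 63.5 and 80.2 CPM with sh-NC and to 30 and 32.9 CPM with sh-IRF2BP2. Most of that fall was CD79A, at 45.6 and 60.5 CPM with sh-NC and 11.2 and 14 CPM after knockdown (log2 fold change -2.07). BLK (12.3 and 14.2 CPM against 13.5 and 13.3 CPM) and CD79B (4.29 and 4.42 CPM against 4.22 and 3.83 CPM) changed little. The 6 NK cell markers summed to 38.7 and 40.6 CPM with sh-NC and to 129 and 138 CPM with sh-IRF2BP2. Most of that rise was EOMES, at 11.8 and 11.3 CPM with sh-NC and 112 and 119 CPM after knockdown (log2 fold change 3.32). GZMA of the same list went the other way, from 26.8 and 29 CPM to 16.5 and 18 CPM. HBA2 (2.29, named after its values were seen, at under 1 CPM and uncertain beside its near-identical copy HBA1) and GZMA (-0.69) were the only other called genes of these lists. The part of these genes in the antigen results was not tested.

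**Figure D2:**
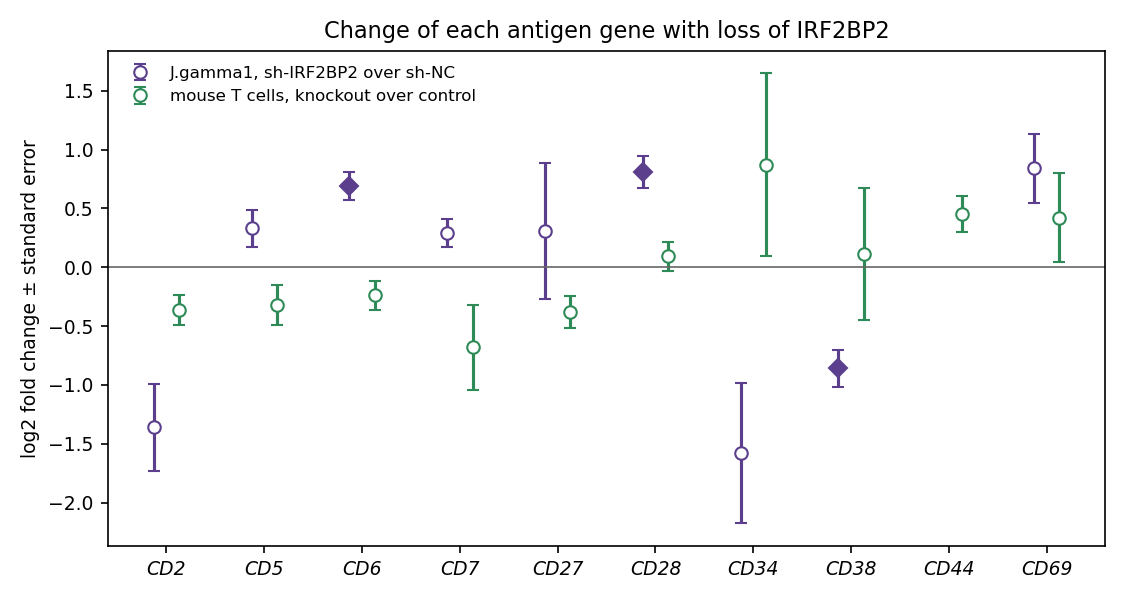
Log2 fold change with its standard error for each antigen gene, with J.gamma1 knockdown against sh-NC in purple and mouse knockout against control in green. Filled diamonds mark the called genes, which are CD6 (0.69), CD28 (0.81) and CD38 (-0.86) in J.gamma1, and open circles the others; CD44 has no J.gamma1 point because it was not tested.

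In mouse splenic T cells none of the 10 antigen genes was called with edgeR, and DESeq2 also called 0. An unadjusted edgeR p under 0.05 was reached by 3 (Cd2, Cd27 and Cd44). All 15350 genes tested gave 2.68% called higher and 0.15% called lower. Knockout and control libraries did not overlap for 5 of the 10, with 4 lower (Cd2, Cd5, Cd6 and Cd27) and 1 higher (Cd44), where 17.8% of all genes did not overlap in the lower and 18.2% in the higher direction. The median log2 fold change of the 10 was -0.076, against -0.018 over all genes. These are bulk libraries, in which fewer cells of a type and less RNA per cell cannot be told apart.

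Mouse positions are given in mm10. Cd2 (ENSMUSG00000027863, chr3:101275899-101287939) was at 325, 360 and 321 CPM in control and at 252 and 271 CPM in knockout libraries. Each knockout value was below each control, with a log2 fold change of -0.36 (SE 0.128) that did not pass the test (edgeR adjusted p = 0.23). Cd5 (ENSMUSG00000024669, chr19:10717116-10739002), which regulates receptor signalling, was at 340, 422 and 316 CPM in control and at 267 and 308 CPM in knockout, with a log2 fold change of -0.32 (SE 0.169, edgeR adjusted p = 0.43). The lowest control and the higher knockout library were nearly level.

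Cd6 (ENSMUSG00000024670, chr19:10789341-10830058) lies 50.3 kb from Cd5 on the minus strand. It was at 380, 398 and 392 CPM in control and at 315 and 344 CPM in knockout, and its control libraries were the tightest of the 10 genes relative to their mean. The log2 fold change was -0.24 (SE 0.123, edgeR adjusted p = 0.4). Cd27 (ENSMUSG00000030336, chr6:125232622-125237010) was at 306, 354 and 295 CPM in control and at 249 and 240 CPM in knockout, a log2 fold change of -0.38 (SE 0.137, edgeR adjusted p = 0.24). Its groups did not overlap, and the gene overlaps Vamp1 on the opposite strand, so some of its counts could belong to that gene.

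Cd28 (ENSMUSG00000026012, chr1:60716800-60773359) was at 264, 236 and 247 CPM in control and at 274 and 256 CPM in knockout. The groups overlapped, with a log2 fold change of 0.091 (SE 0.124, edgeR adjusted p = 0.79). With 1 library left out it ran from 0.021 (without knockout replicate 1) to 0.14 (without control replicate 1). Cd44 (ENSMUSG00000005087, chr2:102811141-102901665), which is high on memory T cells and is carried by many other blood cells, was at 99.3, 87.3 and 74.7 CPM in control and at 112 and 125 CPM in knockout. Both knockout libraries were above all controls, with a log2 fold change of 0.45 (SE 0.153) that did not pass the test (edgeR adjusted p = 0.22). Cd69 (ENSMUSG00000030156, chr6:129267325-129275436) was at 78.4, 124 and 63.7 CPM in control and at 75.6 and 162 CPM in knockout. Here the knockout libraries differed from each other by more than the groups did, and without knockout replicate 2 the log2 fold change turned from 0.42 to -0.25.

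Cd7 (ENSMUSG00000025163, chr11:121036747-121039418), Cd34 (ENSMUSG00000016494, chr1:194938819-194961279) and Cd38 (ENSMUSG00000029084, chr5:43868553-43912375) varied most among the control libraries. Cd7 was at 49.8, 84.6 and 35.6 CPM in control and at 41.1 and 30 CPM in knockout, Cd38 at 14.8, 24.1 and 5.88 CPM in control and at 21.5 and 11 CPM in knockout, and Cd34 at 1.32, 3.37 and 0.375 CPM in control and at 4.2 and 2.14 CPM in knockout. Control replicate 2 was the highest control and control replicate 3 the lowest for all 3 genes, as also for Cd2, Cd5, Cd27 and Cd69. The groups overlapped for Cd7, Cd34 and Cd38. The log2 fold changes were -0.68 (SE 0.362) for Cd7, 0.11 (SE 0.559) for Cd38 and 0.87 (SE 0.778) for Cd34, and none passed the test (edgeR adjusted p = 0.44, 0.95 and 0.66). Without control replicate 2 the log2 fold change was -0.25 for Cd7 and 1.82 for Cd34, and without knockout replicate 1 it was 0.29 for Cd34 and -0.47 for Cd38.

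**Figure D3:**
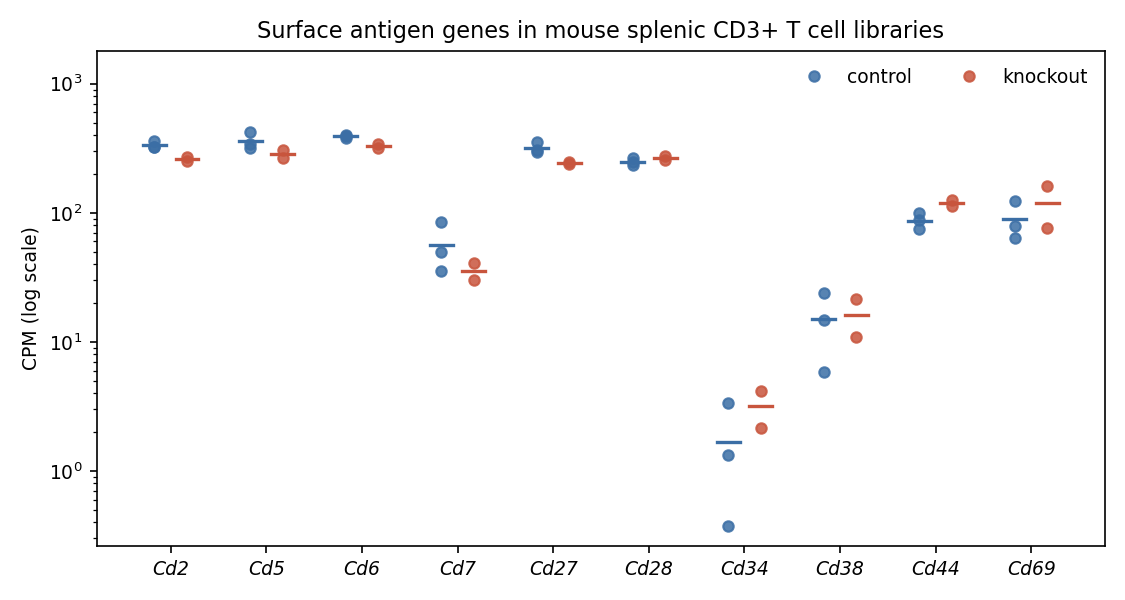
CPM on a log axis of the 10 antigen genes in each mouse library, with control in blue, knockout in red and the group mean as a bar. Cd2, Cd5, Cd6 and Cd27 have both knockout points below the 3 controls, Cd44 has both above, and the other 5 overlap.

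Markers of other cell types varied between the same mouse libraries. The 8 myeloid markers summed to 133, 323 and 41.3 CPM in control and to 144 and 92.1 CPM in knockout, and the 8 B cell markers to 144, 258 and 32 CPM in control and to 116 and 33.8 CPM in knockout. Control replicate 2 was highest and control replicate 3 lowest in both sums, as for Cd38, which B cells and myeloid cells also carry. Among the controls this order also held for the T cell antigens Cd2, Cd5, Cd27 and Cd69, and for the summed CD3 chain genes (1546, 1815 and 1464 CPM). The order was thus shared, but the sizes differed. In control replicates 2 and 3, Cd38 was at 24.1 and 5.88 CPM and Cd69 at 124 and 63.7 CPM. Cd2 was at 360 and 321 CPM there, Cd5 at 422 and 316 CPM, and Cd27 at 354 and 295 CPM. The 12 early progenitor genes summed to 57.7, 98.7 and 26.3 CPM in control and to 153 and 128 CPM in knockout. Cd34 was highest in knockout replicate 1 and lowest in control replicate 3, as that sum was, but the orders differed in between. Cd34 was higher in control replicate 2 (3.37 CPM) than in knockout replicate 2 (2.14 CPM), whereas the sum was lower there. No gene of the myeloid and B cell lists was at 0 in any mouse library. The part of these cells in Cd7, Cd34 and Cd38 was not tested.

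The 14 erythroid markers summed to 2289, 1309 and 612 CPM in control and to 4777 and 6617 CPM in knockout. Of these markers 8 were called higher, against 2.68% of all mouse genes tested. All 14 were above the controls in both knockout libraries, against 18.2% of all genes. The 6 NK cell markers summed to 242, 200 and 155 CPM in control and to 152 and 280 CPM in knockout. Of 12 activation genes tested 2 were called higher, Mki67 (log2 fold change 2.78, edgeR adjusted p = 0.0072) and Tfrc (1.96, edgeR adjusted p = 0.0045). Cd44, which erythroid precursors also carry, was higher in both knockout libraries without passing the test. Whether the Cd44 values follow the erythroid content of the libraries was not tested.

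**Figure D4:**
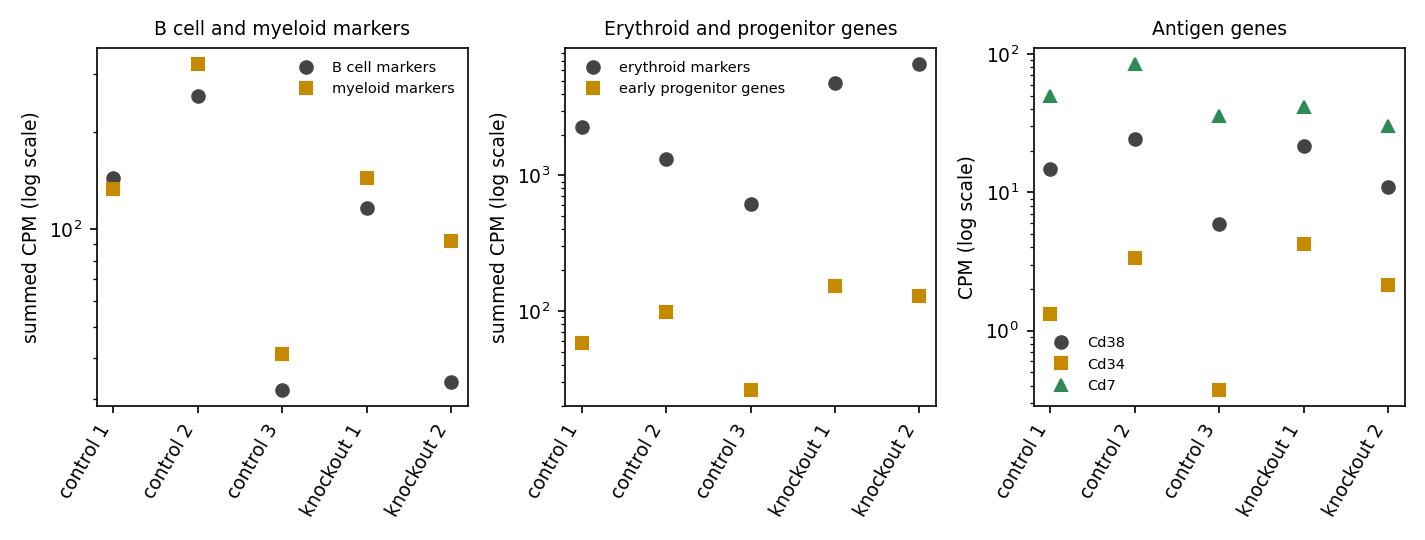
Summed CPM of B cell and myeloid markers (left), summed CPM of erythroid and early progenitor genes (middle) and CPM of Cd38, Cd34 and Cd7 (right) in each mouse library, all on log axes. Control replicate 3 is the lowest library in all 4 sums and for Cd38 and Cd34, and the erythroid sums of both knockout libraries exceed those of the 3 controls.

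Other T cell genes of the mouse libraries lay below control together with Cd2, Cd5, Cd6 and Cd27. Of 10 genes of the T cell receptor and its coreceptors, 9 were lower in both knockout libraries than in every control (median log2 fold change -0.55), and 1 was called lower, Cd8b1, the CD8 beta chain (458, 479 and 515 CPM in control, 236 and 268 CPM in knockout, edgeR adjusted p = 0.021). Over all mouse genes tested, 17.8% were lower and 18.2% higher without overlap, and 0.15% were called lower. Cd3d, Cd3e, Cd3g and Cd247, which encode the CD3 chains, summed to 1546, 1815 and 1464 CPM in control and to 1109 and 1130 CPM in knockout. None of these 4 genes was called with edgeR, with adjusted p of 0.17, 0.21, 0.14 and 0.15, although each had an unadjusted p under 0.05, and DESeq2 called Cd3g. Of 14 other T lineage surface genes edgeR called 0 and DESeq2 5, with 8 at an unadjusted p under 0.05, 7 lower and 2 higher without overlap. Of 15 ligand genes edgeR called 0 and DESeq2 2, with 6 at an unadjusted p under 0.05. Of 27 partners in the same cell both tools called 0, with 4 at an unadjusted p under 0.05. Over all mouse genes DESeq2 called 945 higher and 213 lower, against 412 and 23 with edgeR. The share of all genes at an unadjusted p under 0.05 is not given, so those list counts have no background beside them.

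Each antigen was therefore also expressed as a percentage of the summed CD3 chain CPM of its library, a scaling chosen after seeing the data and given without a test. On this scale Cd2 (20.9% ± 1.05 in control against 23.3% ± 0.869 in knockout, SD, n = 3 and 2), Cd5 (22.3% ± 0.875 against 25.7% ± 2.22), Cd6 (24.4% ± 2.42 against 29.4% ± 1.41) and Cd27 (19.8% ± 0.318 against 21.8% ± 0.874) were higher in knockout, whereas they were lower in CPM. Cd28 went from 15.6% ± 2.3 to 23.7% ± 1.44 and Cd44 from 5.45% ± 0.861 to 10.6% ± 0.649. In all, 8 of the 10 were higher without overlap and 0 were lower, and for Cd69 and Cd34 the highest control and the lower knockout library were almost equal. Cd7 and Cd38 overlapped. The same was true of 63.2% of all mouse genes in the higher and of 1.44% in the lower direction, since the CD3 sum itself was lower in knockout, so the 8 stand near the background.

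In J.gamma1 cells the CD3 sum was 851 and 937 CPM with sh-NC and 795 and 863 CPM with sh-IRF2BP2, and scaling to it left the counts without overlap as before, with 5 antigens higher and 3 lower, against 35.4% and 20.2% of all genes. CD6 went from 5.14% ± 0.00276 to 8.96% ± 0.363 of the CD3 sum, CD28 from 2.89% ± 0.245 to 5.46% ± 0.226, and CD38 from 5.36% ± 0.429 to 3.16% ± 0.377 (SD, n = 2 and 2).

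**Figure D5:**
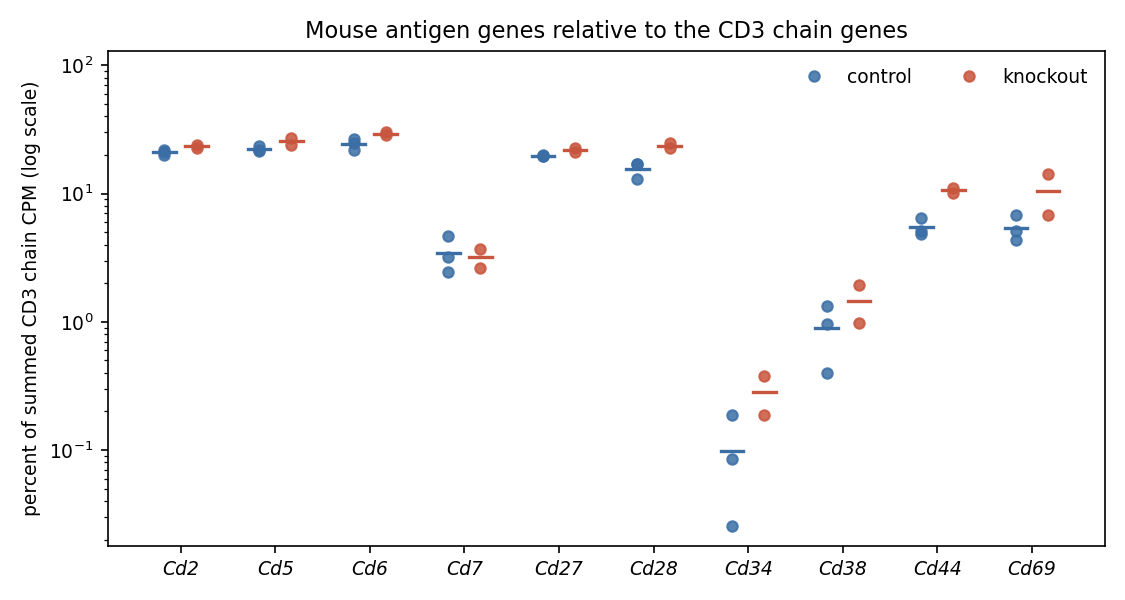
Each mouse antigen gene as a percentage of the summed CPM of Cd3d, Cd3e, Cd3g and Cd247 in the same library, on a log axis, with control in blue, knockout in red and the group mean as a bar. Cd28 and Cd44 lie higher in both knockout libraries than in the 3 controls, and Cd7 and Cd38 overlap.

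Per kilobase of exon the mouse antigen levels in control ran from Cd2 (193 ± 12.4 CPM per kb, SD, n = 3) and Cd27 (137 ± 13.6) over Cd5 (73 ± 11.3), Cd7 (50 ± 22.2), Cd6 (48.9 ± 1.1) and Cd28 (40.7 ± 2.29) to Cd69 (13.6 ± 4.79), Cd44 (12.9 ± 1.82), Cd38 (3.84 ± 2.34) and Cd34 (0.232 ± 0.21). Cd5 and Cd7, Cd7 and Cd6, and Cd69 and Cd44 overlapped as neighbours. In knockout the first 3 ranks were again Cd2, Cd27 and Cd5, and Cd28 (43.3 ± 2.04) stood at rank 4, overlapping Cd6 (41.3 ± 2.56). In these per-length orders Cd2 was the highest of the 10 in mouse T cells and CD2 the seventh in J.gamma1 cells, and Cd27 was the second and CD27 the eighth. The species differ in annotation, so these ranks are set side by side without a test.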

How the data were processed

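RNA-seq libraries of J.gamma1 cells (2 sh-NC, 2 sh-IRF2BP2) and of mouse splenic CD3+ T cells (3 control, 2 knockout) were analysed, grouped by their labels. The tables the authors deposited hold unnormalized counts, 1 whole number for each Ensembl gene in each library. The submitters' processing notes name HISAT2 2.2.0, StringTie and the builds hg38 and mm10; how StringTie output became counts, and whether strand was used, is not given in the sources used here. A read length set wrong at that step would scale the counts of a library as a whole.

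Rows in GENCODE 44 (human) or M21 (mouse) were kept, and genes passing edgeR's filterByExpr (15819 and 15350) were tested per species with edgeR 4.0.16 (TMM, quasi-likelihood test, R 4.3.3) and Benjamini-Hochberg adjustment. No pair of replicates agreed within sampling noise (smallest chi-square 18.2 per gene), and every library was kept as its own replicate. Depth per library is given in the report; a count of 3 was the floor.

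The 10 antigens, the gene lists and the tests were chosen with earlier results of these data known. All 10 antigens are named; of the other lists, at most 4 called genes per direction with a group mean of at least 5 CPM, by size of change, plus genes said to be named after their values were seen or given for context. Counts of genes at an unadjusted p under 0.05 are given without their share over all genes, in both species. CPM per kb uses the union exon length. DESeq2 1.42.0, RLE scaling, other filters, rows and fold thresholds, a replicate block and leaving out each library were alternatives. Promoter letters were searched on both strands from the reference. Some promoter sequences and 1 ligand gene are not reported here.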

Additional observations from a re-analysis of the deposited data

Results flagged for a closer look

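CD5 and CD6, nearby scavenger-type receptor genes, had values of opposite sign in the 2 comparisons. CD5 had a log2 fold change of 0.33 in J.gamma1 cells and Cd5 one of -0.32 in mouse T cells. CD6 had a log2 fold change of 0.69 in J.gamma1 cells and Cd6 one of -0.24 in mouse T cells. Both were picked out because every knockdown library lay above every sh-NC library in J.gamma1, and every knockout library lay below every control in the mouse. With 1 library left out, CD5 was at 0.18 (without sh-NC replicate 1), 0.19 (without sh-IRF2BP2 replicate 2) or 0.50 (without sh-NC replicate 2), and Cd5 at -0.17 without control replicate 2. Of these 4 changes only that of CD6 in J.gamma1 passed the edgeR test, and the difference between the comparisons was not tested. Relative to the summed CD3 chain genes the mouse values turned to 0.20 for Cd5 and 0.27 for Cd6.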

How the results depend on the processing

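Low counts limited CD27, CD34 and CD44 in J.gamma1 and Cd34 in the mouse. In J.gamma1, 2 antigens were called lower in place of 1 with DESeq2, RLE scaling or the replicate block, with CD2 joining CD38, and the number lay between 0 and 2 when 1 library was left out. At a log2 fold change of at least 1, 0 antigens were called higher and 0 lower with edgeR, although 7 of 9 had an unadjusted p under 0.05. In the mouse 0 were called under every alternative run. Over all J.gamma1 genes, the counts called higher and lower were 319 and 396 when all genes with 1 count or more were tested, 262 and 318 at a log2 fold change of at least 1, and 418 to 1608 and 419 to 1143 with 1 library left out. The low ends came without sh-IRF2BP2 replicate 1, and the counts without sh-IRF2BP2 replicate 2 were 518 and 516. Over all mouse genes, DESeq2 called 945 higher and 213 lower. Leaving out 1 library gave 6 to 594 higher and 1 to 65 lower: 6 and 1 without control replicate 1, 65 lower without control replicate 2, 51 lower without control replicate 3, 47 and 3 without knockout replicate 1, and 9 and 1 without knockout replicate 2. The sign turned for CD27 without sh-IRF2BP2 replicate 2 (-0.61, from -0.61 to 0.83 over the alternatives), for Cd38 without control replicate 3 (-0.27) and without knockout replicate 1 (-0.47, up to 0.64), and for Cd69 without knockout replicate 2 (-0.25, up to 0.85), none of them called. The cause of these shifts was not tested.

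The labels number the replicates without saying that a number marks a shared batch, day or animal. The correlation of deviations between same-numbered libraries was 0.225 in J.gamma1, where both pairs give the same value by construction and the crossed pairs gave -0.225, and 0.151 and -0.161 in the mouse. Whether the numbers pair the J.gamma1 libraries is not settled by these 2 pairs, and in the mouse the signs differed. A fit with the replicate number as a block called CD2 (edgeR adjusted p = 0.0062) and CD69 (0.011) in J.gamma1, with 1293 genes higher and 1174 lower over all. In the mouse it gave Cd38 a log2 fold change of -0.29 and called 53 genes lower. Replicate number 3 occurs only in control, so that library added nothing to the mouse contrast of this fit. The values were near those without control replicate 3 (-0.27 for Cd38 and 51 genes lower).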
